A study of Mus musculus with 6 samples.

Results

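The 10 genes S100a8, S100a9, Ltf, Camp, Ngp, Elane, Mpo, Lcn2, Chi3l3 and Lyz2 encode abundant proteins of neutrophils, and their reads were followed in mouse leukaemia cells sorted by a B-cell surface protein. They were taken by name from each of the 6 deposited gene tables, and all 10 of 10 were found in every table, among 37732 genes joined between the tables. Their summed level was used to gauge how much neutrophil RNA the sorted samples held. S100a8 and S100a9 are cytosolic proteins rather than granule contents, and Lyz2 is also expressed by monocytes and macrophages, so the 10 are neutrophil transcripts in a broad sense.

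C57BL/6 mice had received lineage-negative fetal liver cells expressing N-Myc and a GFP reporter, which start a B-cell acute lymphoblastic leukaemia (B-ALL). When about 60% of blood cells were GFP-positive, mice were left on normal feed (control) or were fasted for 1 day or for 2 days. Bone marrow cells positive for GFP and for B220, the B-cell form of CD45, were sorted for RNA-seq, so every group carried N-Myc and GFP and differed by fasting. The labels name only these markers for the gate, and they do not state the number, age or sex of the mice behind a library. For each of the 3 groups there are 2 libraries, whose replicate numbers in the titles are used here as run 1 and run 2.

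Neutrophils fill their granules in sequence as they mature in the bone marrow. Promyelocytes make the enzymes of primary granules, such as Mpo and Elane, myelocytes make the proteins of secondary granules, such as Ltf, Camp, Ngp and Lcn2, and later stages make those of tertiary granules, while S100a8 and S100a9 build up to form much of the cytosolic protein. Transcription of the secondary granule genes is known to depend on C/EBP factors, and that of many myeloid genes on PU.1. PU.1 and several oxidase subunits are made by B-lineage cells as well.

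The libraries held between 19368326 (run 2 at 2 days) and 45862844 (run 2 at 1 day) total gene reads. For most genes the runs of a group differed by little more than sampling noise, and nothing in the labels says that they came from separate mice. Each group was therefore counted as 1 sample (n = 1), so no test applies and no difference between groups could be checked against replicates. Levels are CPM, gene reads relative to a TMM-adjusted library total, and folds are log2 folds of the mean CPM of both runs with 0.1 CPM added. A gene is called higher or lower where the mean and each run differed by at least 1.5-fold in one direction. All 95% intervals cover counting error only. Against the sort label, 9 measured B-lineage genes summed to between 4149 and 4680 CPM in every library. Of these genes and Mycn, 10 together, 1 was called higher (Cd22) and 2 lower (Blnk and Vpreb1) at 2 days against control. Over all genes compared, 9.52% were called higher and 10.1% lower. The log2 folds were 0.69 for Cd22, −0.60 for Blnk and −5.39 for Vpreb1, the last from 57.2 to 1.27 CPM. The driving oncogene Mycn had mean levels of 2175, 2107 and 2275 CPM in the fed, 1-day and 2-day groups, the order used below wherever 3 values follow a gene. Gene counts do not separate B220 from other forms of CD45.

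The members lie on 5 chromosomes of mm10. S100a8 (chr3:90669071-90670034, plus strand) and S100a9 (chr3:90692632-90695721, minus strand) face each other 22.6 kb apart. Camp (chr9:109847375-109849456, minus strand), Ngp (chr9:110419750-110423010, plus strand) and Ltf (chr9:111019292-111042766, plus strand) follow one another on chromosome 9, with 570 kb between Camp and Ngp and 596 kb between Ngp and Ltf. Chi3l3 (chr3:106147554-106167564, minus strand) has the current symbol Chil3. Elane (chr10:79886312-79888216, plus strand) lies 3.14 kb from Prtn3, another neutrophil serine protease. Lyz2 (chr10:117277334-117282274, minus strand) lies 5.52 kb from its near copy Lyz1. Mpo (chr11:87793581-87804413, plus strand) holds an antisense gene model, Gm11505, and Lcn2 lies at chr2:32384633-32387797 on the minus strand. The positions are those of the whole gene spans, introns included, and all 10 are annotated as protein coding.

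Promoters from RefSeq (GRCm38.p6) were matched for 10 of 10 members, as 300 bases from 250 before to 50 after the annotated start. Not all of these are printed. Camp was also lowest at 1 day and below control at 2 days, and Lcn2 was also above control at 2 days, and both are left out. The promoters of 4 other members that were lowest at 1 day and below control at 2 days, and of Chi3l3 and Lyz2, which were above control at 2 days, are printed on the gene's own strand. Capitals mark the C/EBP letters TTGCNNAA on either strand.
S100a8: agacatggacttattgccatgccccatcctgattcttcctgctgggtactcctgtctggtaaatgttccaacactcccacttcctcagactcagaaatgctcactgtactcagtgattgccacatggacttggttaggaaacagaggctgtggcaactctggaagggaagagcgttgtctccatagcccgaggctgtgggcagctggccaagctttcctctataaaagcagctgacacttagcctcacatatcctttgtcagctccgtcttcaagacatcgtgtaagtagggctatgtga
S100a9: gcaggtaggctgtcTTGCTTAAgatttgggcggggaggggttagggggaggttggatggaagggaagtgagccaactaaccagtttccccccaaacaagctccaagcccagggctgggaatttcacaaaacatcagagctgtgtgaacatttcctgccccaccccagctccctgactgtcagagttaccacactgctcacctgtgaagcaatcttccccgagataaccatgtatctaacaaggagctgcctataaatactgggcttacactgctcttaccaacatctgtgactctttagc
Ltf: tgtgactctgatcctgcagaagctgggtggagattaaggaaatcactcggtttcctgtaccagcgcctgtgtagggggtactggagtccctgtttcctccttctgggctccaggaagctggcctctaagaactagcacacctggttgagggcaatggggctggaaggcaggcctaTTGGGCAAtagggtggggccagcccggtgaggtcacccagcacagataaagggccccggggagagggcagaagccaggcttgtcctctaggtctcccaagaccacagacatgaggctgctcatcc
Ngp: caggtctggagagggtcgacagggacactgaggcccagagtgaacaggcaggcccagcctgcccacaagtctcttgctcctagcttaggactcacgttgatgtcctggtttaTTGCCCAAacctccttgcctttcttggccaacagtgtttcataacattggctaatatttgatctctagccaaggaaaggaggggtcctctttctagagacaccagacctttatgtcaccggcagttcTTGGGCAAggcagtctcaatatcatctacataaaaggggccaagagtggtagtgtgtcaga
Chi3l3: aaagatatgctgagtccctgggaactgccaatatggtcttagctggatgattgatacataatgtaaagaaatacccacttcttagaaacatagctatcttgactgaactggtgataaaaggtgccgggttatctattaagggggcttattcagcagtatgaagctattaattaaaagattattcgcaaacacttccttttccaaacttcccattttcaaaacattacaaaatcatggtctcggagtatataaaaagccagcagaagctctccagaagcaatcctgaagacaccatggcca
Lyz2: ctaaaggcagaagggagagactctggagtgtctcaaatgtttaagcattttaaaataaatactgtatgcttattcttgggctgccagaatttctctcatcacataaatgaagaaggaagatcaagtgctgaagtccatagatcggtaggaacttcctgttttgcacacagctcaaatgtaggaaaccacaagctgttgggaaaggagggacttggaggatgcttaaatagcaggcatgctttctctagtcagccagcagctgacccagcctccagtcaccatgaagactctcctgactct
These windows are chr3:90668821-90669120 for S100a8, chr3:90695672-90695971 for S100a9, chr9:111019042-111019341 for Ltf, chr9:110419558-110419857 for Ngp, chr3:106167515-106167814 for Chi3l3 and chr10:117282223-117282522 for Lyz2. The C/EBP letters were found in 4 of the 10 member promoters, those of S100a9, Ltf, Ngp and Lcn2, against 10.8% of 32851 mouse promoters of the same length. Ngp holds them at 2 places, beginning 138 and 11 bases before the start, Ltf 75 bases, S100a9 236 bases and Lcn2 216 bases before it. These distances run from the RefSeq start, which for Ngp and Lcn2 lies inside the gene span given above. The nearer Ngp match therefore lies within that span. The letters GAGGAA, part of the PU.1 motif, were found on either strand in 5 of 10 members (S100a8, Ltf, Elane, Mpo and Lcn2) against 28.3% of all promoters, and TATAAA in 3 of 10 (S100a8, S100a9 and Chi3l3) against 13.6%. TATAAA began 30 bases before the RefSeq start in S100a8, 3 bases before it in Chi3l3 and at the start itself in S100a9. The count is thus of letters anywhere in the window. No matches of different motifs overlapped in a member's promoter. The members without the C/EBP letters include S100a8 and Camp, whose levels are described with those of S100a9, Ltf and Ngp below, so the letters do not divide the members by their levels.

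The summed level of the 10 members was lowest after 1 day of fasting and close to control after 2 days, while single members differed from this. They summed to 1135 and 1157 CPM in control, to 738 and 778 CPM at 1 day, and to 1078 and 1089 CPM at 2 days. Both 1-day runs lay below all 4 other libraries, and both 2-day runs lay below both control runs by a small margin. The summed level at 1 day was 0.662 times that of control (log2 fold −0.60, with −0.62 in run 1 and −0.57 in run 2), and at 2 days it was 0.946 times that of control (log2 fold −0.08). As a share of gene reads, which needs no scaling between libraries, the members held 0.114% in control, 0.0758% at 1 day and 0.110% at 2 days. In RNA from sorted populations, fewer cells of a type and less RNA per cell cannot be told apart, and reads from leukaemic cells themselves cannot be separated from those of other cells.

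**Figure D1:**
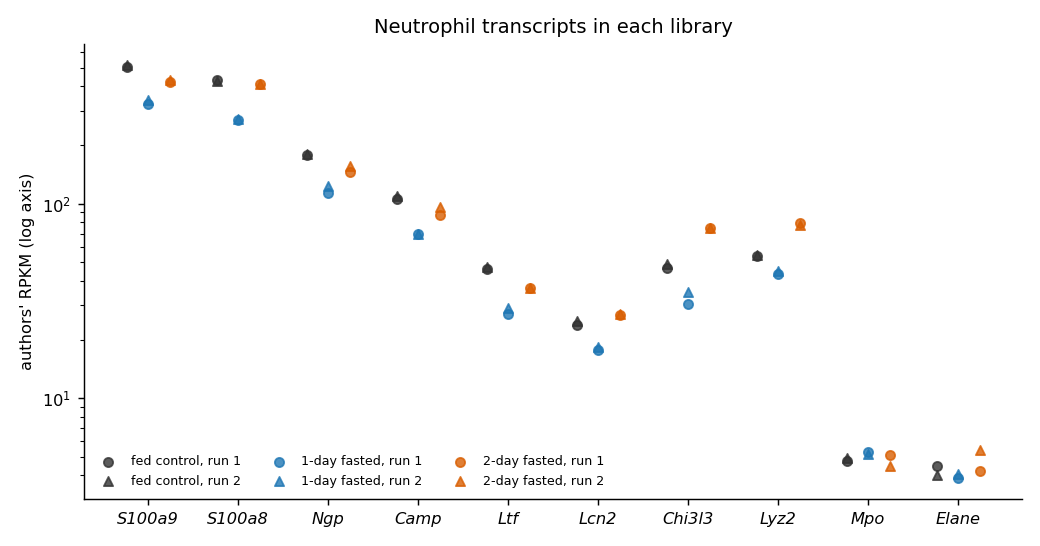
The authors' RPKM (reads per exon length and library total, log axis) of each member in each library, with groups by colour, circles for run 1 and triangles for run 2. S100a9 and S100a8 are the most abundant, Mpo and Elane lie near 5, and in 8 of the 10 genes both 1-day points lie below both control points and both 2-day points.

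Per exon length, the cytosolic pair was the most abundant, and the members kept almost the same order in every group. In control, the mean RPKM was 512 for S100a9, 427 for S100a8, 179 for Ngp, 107 for Camp, 54.0 for Lyz2, 47.7 for Chi3l3, 46.7 for Ltf, 24.4 for Lcn2, 4.83 for Mpo and 4.26 for Elane. By RPKM among all genes, S100a9 ranked 74 in control, 128 at 1 day and 95 at 2 days, and S100a8 ranked 95, 166 and 100 in the same groups. The RPKM of Chi3l3 and Ltf overlapped between runs in control, with 46.6 and 48.8 for Chi3l3 and 46.1 and 47.3 for Ltf, so their order there is not resolved. At 2 days they were far apart, at 75.2 and 36.9 RPKM. Mpo and Elane, at 4.77 and 4.82 RPKM, overlapped between runs at 2 days and did not in the other groups.

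S100a8 and S100a9 encode both chains of calprotectin, a calcium-binding and zinc-binding complex. S100a9 stood at 283 and 290 CPM in control, 179 and 188 CPM at 1 day, and 233 and 235 CPM at 2 days. S100a8 stood at 181 and 179 CPM in control, 112 and 113 CPM at 1 day, and 171 and 170 CPM at 2 days. For both genes the 3 groups did not overlap, with control highest and 1 day lowest. Both were called lower at 1 day, with log2 folds of −0.68 for S100a8 (ratio 0.627, 95% interval 0.609 to 0.645) and −0.64 for S100a9 (ratio 0.642, 0.628 to 0.656). Neither passed the fold rule at 2 days against control, where S100a8 was at −0.08 and S100a9 at −0.29. Between the fasts, S100a8 was called higher at 2 days than at 1 day (log2 fold 0.60, ratio 1.52, 1.47 to 1.56), close to the 1.5-fold line in both runs, and S100a9 was not (0.35). With no filter on low counts S100a8 was at 0.59 and lost this call.

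The secondary granule proteins lactoferrin (Ltf), the cathelicidin Camp, the neutrophilic granule protein Ngp and the iron-scavenging lipocalin Lcn2 were lower at 1 day in every run. Ltf stood at 136 and 139 CPM in control, 78.8 and 85.1 CPM at 1 day, and 107 and 106 CPM at 2 days. Camp stood at 67.6 and 70.5 CPM in control, 44.4 and 44.3 CPM at 1 day, and 55.9 and 60.6 CPM at 2 days. Both genes were called lower at 1 day, with log2 folds of −0.75 for Ltf (ratio 0.598, 0.579 to 0.618) and −0.64 for Camp (ratio 0.638, 0.610 to 0.668), and the groups did not overlap. Ngp, at 232 and 235 CPM in control, 146 and 159 CPM at 1 day, and 187 and 199 CPM at 2 days, missed the call at 1 day by its run 2 (log2 folds −0.66 and −0.57). Camp is the member just inside the rule at 1 day, with −0.61 and −0.67 in run 1 and run 2. At 2 days none of Ltf, Camp and Ngp was called against control, at −0.37, −0.25 and −0.28.

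Lcn2 stood at 58.7 and 61.7 CPM in control, 43.0 and 44.8 CPM at 1 day, and 65.4 and 65.7 CPM at 2 days. Its 2-day runs lay above both control runs, which sets it apart from Ltf, Camp and Ngp, although no comparison passed the rule (log2 folds −0.46 and 0.12 against control, and 0.58 between the fasts). The ratio of Lcn2 to Ltf per exon length was 0.523 in control (95% interval 0.504 to 0.543), 0.636 at 1 day (0.609 to 0.664) and 0.730 at 2 days (0.701 to 0.761). Such a ratio is taken within a sample and does not depend on the scaling between libraries. The 3 intervals do not overlap.

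Chi3l3, a chitinase-like lectin that is stored in neutrophil granules and also made by activated macrophages, showed the widest range of the 10. It stood at 81.7 and 85.4 CPM in control, 52.5 and 60.6 CPM at 1 day, and 130 and 129 CPM at 2 days. It was not called at 1 day (log2 fold −0.56, run 2 at −0.49), was called higher at 2 days against control (0.63, ratio 1.54, 1.49 to 1.60), and was called higher at 2 days than at 1 day (1.19, ratio 2.26, 2.17 to 2.35). The 2-day call against control rests on a run 2 fold of 0.59, near the 1.5-fold line, and it was lost with DESeq2 size factors, with no filter on low counts and with 1 CPM added. The value itself stayed between 0.60 and 0.68 under all alternatives tried.

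Lyz2, the lysozyme of macrophages and neutrophils, followed Chi3l3 at 2 days and differed from it at 1 day. Its levels were 73.3 and 73.5 CPM in control, 58.6 and 60.7 CPM at 1 day, and 106 and 103 CPM at 2 days. The log2 folds against control were −0.30 at 1 day and 0.51 at 2 days, neither past the rule, and between the fasts Lyz2 was called higher at 2 days (0.81, ratio 1.75, 1.69 to 1.82). About 85.6% of its reads in control were unique, against all or nearly all for Ltf. Its near copy Lyz1 had 2 reads over both control runs, so few reads were assigned to the copy.

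Elane and Mpo, the elastase and the peroxidase of primary granules, did not share the dip at 1 day. Mpo stood at 17.5 and 18.0 CPM in control, 19.3 and 18.8 CPM at 1 day, and 18.4 and 16.1 CPM at 2 days. Elane stood at 4.43 and 3.98 CPM in control, 3.78 and 3.98 CPM at 1 day, and 4.14 and 5.21 CPM at 2 days. The 1-day runs of Mpo lay above all others, while its 2-day and control runs overlapped. For Elane the control runs overlapped the 2-day runs and met the 1-day runs at 3.98 CPM, while both 1-day runs lay below both 2-day runs. At 1 day the ratio to control was 1.07 for Mpo (95% interval 0.985 to 1.15) and 0.943 for Elane (0.795 to 1.12), and both intervals exclude the 0.662 of the summed members. Elane was counted from only 252 to 285 reads in a group, and between 65.6% and 66.7% of Mpo reads were unique, so these are the least precise of the 10. Gm11505 lies within Mpo and whether counting used strand is not stated in the sources used here, so reads of the pair cannot be told apart.

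**Figure D2:**
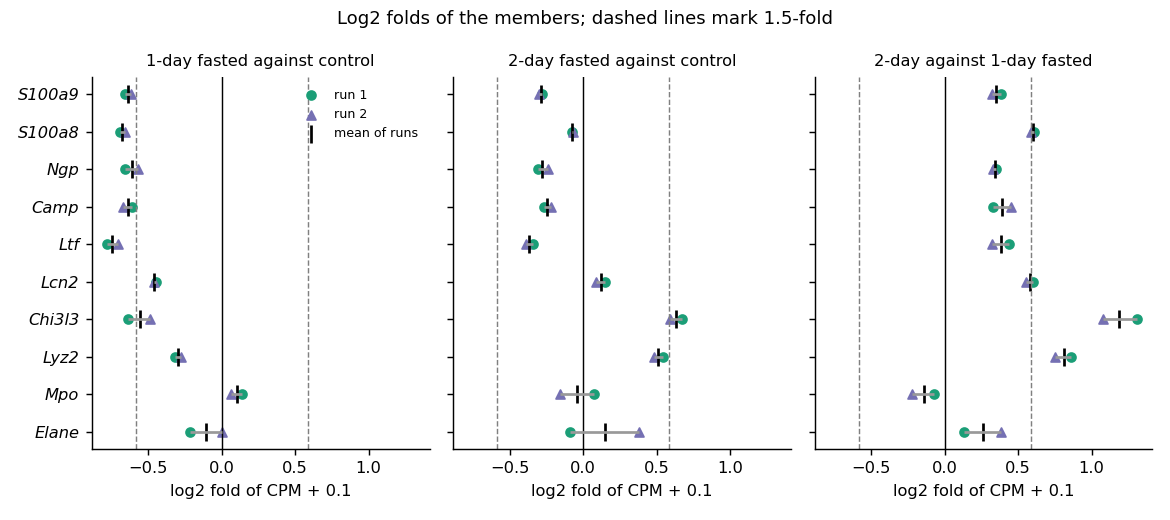
Log2 fold of CPM + 0.1 for each member in the 3 comparisons, with circles for run 1, triangles for run 2, a black bar for the mean of runs and dashed lines at 1.5-fold. At 1 day 9 of 10 means lie below 0. At 2 days Chi3l3 lies above 1.5-fold at 0.63, and Ltf is the lowest at −0.37.

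At 1 day 4 of 10 members (S100a8, S100a9, Ltf and Camp) were called lower and 0 were called higher. Among 14236 genes compared, 2.79% were called lower and 4.29% higher. At 2 days 1 of 10 (Chi3l3) was called higher and 0 lower against control, where the background was 9.52% higher and 10.1% lower. The member count at 2 days is near its background, and the count of lower calls at 1 day is above its background. Between the fasts, 3 of 10 (S100a8, Chi3l3 and Lyz2) were called higher at 2 days and 0 lower, against 5.63% and 8.59% of genes. The same shares over all genes are the background for the list counts given below. The median log2 fold of the members was −0.59 at 1 day, −0.06 at 2 days and 0.39 between the fasts, beside 0.002, 0.01 and 0.003 over all genes compared. Both comparisons with control share the control libraries, so their values are not independent.

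The members did not move by 1 common factor. Summed by role, S100a8 and S100a9 had log2 folds of −0.66 at 1 day and −0.21 at 2 days against control. Ltf, Camp, Ngp and Lcn2 together were close to that pair, at −0.63 and −0.24. Chi3l3 and Lyz2 together were at −0.43 and 0.58, and Elane and Mpo together at 0.06 and 0.00. Of all member reads, Chi3l3 and Lyz2 held 13.7% in control, 15.4% at 1 day and 21.7% at 2 days, while Elane and Mpo held 1.91%, 3.00% and 2.04%.

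Ratios between members within a sample show which of them kept step. The ratio of Ngp to Camp per exon length was 1.66 in control (95% interval 1.61 to 1.72), 1.71 at 1 day (1.65 to 1.78) and 1.64 at 2 days (1.58 to 1.71), and the intervals of all groups overlap. The ratio of S100a9 to S100a8 was 1.20 in control (1.18 to 1.23) and 1.23 at 1 day (1.20 to 1.27), and was lower at 2 days at 1.03 (1.00 to 1.06), with both runs of each group close together. Chi3l3 to Ltf was 1.02 in control (0.989 to 1.06), 1.17 at 1 day (1.12 to 1.21) and 2.04 at 2 days (1.97 to 2.11). Lyz2 to Ltf was 1.15 in control (1.11 to 1.19), 1.57 at 1 day (1.51 to 1.63) and 2.13 at 2 days (2.06 to 2.21). So the ratio to Ltf was higher with each longer fast for both genes, with no overlap of the intervals. Lyz2 to Chi3l3 was higher at 1 day, at 1.34 (1.29 to 1.40), than in control, at 1.13 (1.08 to 1.17), or at 2 days, at 1.04 (1.01 to 1.08). Mpo to S100a9 was 0.00944 in control (0.00889 to 0.0100), 0.0157 at 1 day (0.0148 to 0.0166) and 0.0115 at 2 days (0.0108 to 0.0123).

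**Figure D3:**
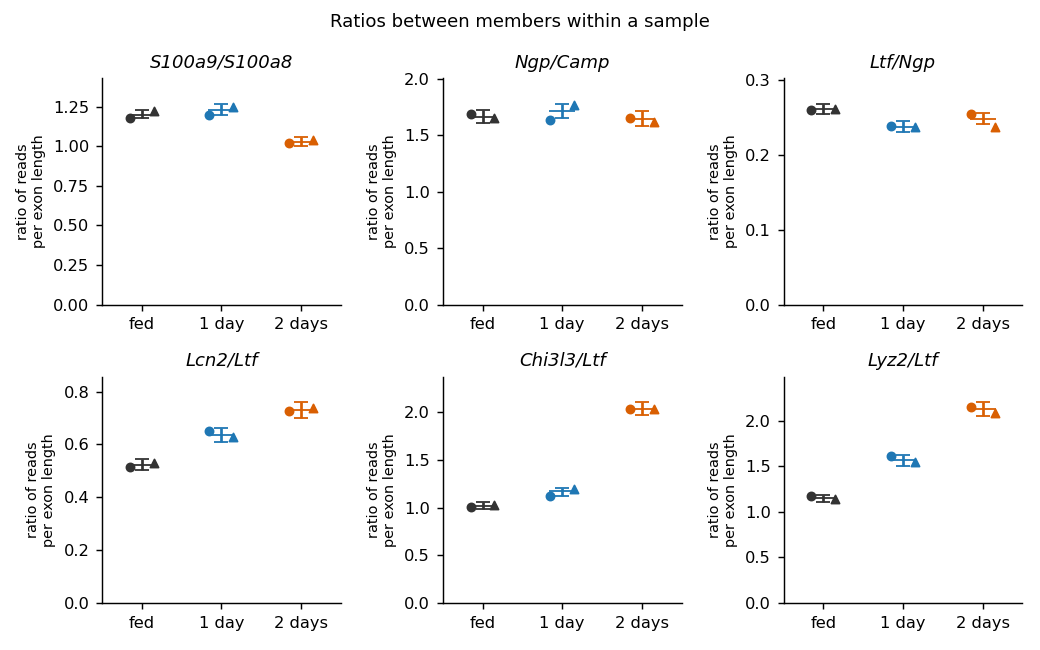
Ratio of reads per exon length between pairs of members within each sample, on axes that start at 0. Horizontal marks are pooled over both runs with 95% binomial intervals (counting error only), circles run 1 and triangles run 2. Ngp/Camp is level across groups, S100a9/S100a8 is lower at 2 days, and Chi3l3/Ltf and Lyz2/Ltf are highest at 2 days.

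Reads within introns were few for these genes, and their share differed most for Ltf and Chi3l3. Over all members 1.82% of gene reads lay in introns in control, 1.86% at 1 day and 1.48% at 2 days, beside 11.0%, 11.5% and 11.0% over all joined genes. For Ltf the share was 4.67% in control (95% interval 4.24% to 5.13%), 4.38% at 1 day (3.88% to 4.93%) and 3.08% at 2 days (2.65% to 3.55%). For Chi3l3 it was 5.33% (4.75% to 5.96%), 4.65% (4.04% to 5.33%) and 3.10% (2.71% to 3.52%). In both genes the 2-day share lay below the intervals of the other groups, although Ltf was lower and Chi3l3 higher in level at 2 days than in control. For Chi3l3 the number of intron reads was 291 in control and 225 at 2 days, while its gene reads were 5462 and 7262. The share of reads across exon junctions differed for S100a8, at 11.7% in control (11.2% to 12.3%), 11.9% at 1 day (11.2% to 12.7%) and 14.4% at 2 days (13.7% to 15.2%). For S100a9 it was 16.8%, 16.4% and 15.8%.

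**Figure D4:**
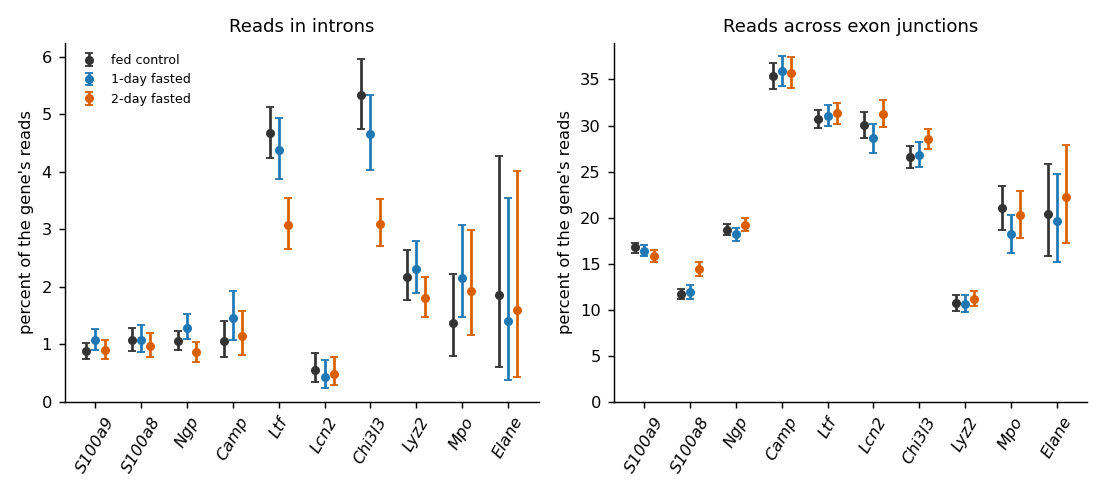
Share of each member's gene reads that lay in introns (left) or crossed exon junctions (right), in percent, by group, with both runs pooled and 95% exact binomial intervals (counting error only). The intron shares of Ltf and Chi3l3 are lowest at 2 days, at 3.08% and 3.10%, and the junction share of S100a8 is highest at 2 days, at 14.4%.

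The other genes of secondary and tertiary granules had a median below control at 1 day and above it at 2 days. Of 16 such genes beyond the members, 1 was called lower (Orm1) and 1 higher (Cyba) at 1 day, 3 were called higher and 1 lower at 2 days against control, and 7 were called higher and 0 lower at 2 days against 1 day. Their median log2 folds were −0.37, 0.16 and 0.59. Cd177, a surface protein of neutrophils, stood at 24.5, 16.1 and 23.9 CPM in control, at 1 day and at 2 days. The collagenase Mmp8 stood at 18.3, 14.8 and 29.7 CPM and was called higher at 2 days (log2 fold 0.70), while the gelatinase Mmp9 stood at 19.3, 15.6 and 26.3 CPM and was called only against 1 day (0.75). The integrin chain Itgam stood at 18.6, 15.1 and 23.3 CPM and passed no rule. Of the oxidase chains, Cybb stood at 29.4, 22.3 and 28.5 CPM and was called in no comparison. Cyba stood at 30.9, 65.7 and 114 CPM and was called higher in all 3 comparisons, and it is expressed by many cell types.

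Genes of the neutrophil cytosol and of later maturation had a median close to control at 1 day and above it at 2 days. Of 33 such genes beyond the members, 0 were called at 1 day, with a median log2 fold of −0.02. At 2 days 15 of the 33 were called higher and 1 lower against control, against a background of 9.52% and 10.1%, with a median of 0.64. Retnlg, a resistin-like protein of neutrophils, stood at 19.6, 19.3 and 32.2 CPM and was called higher at 2 days (0.71). The oxidase subunit Ncf4 (65.4, 90.7 and 120 CPM) was also called higher at 2 days, and B-lineage cells express it. Glutathione reductase Gsr (52.6, 72.8 and 53.6 CPM) and annexin Anxa1 (40.3, 39.7 and 42.5 CPM) were called in no comparison.

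A few receptors were picked after their values were seen, because they are commonly used to define neutrophils. Csf3r, the G-CSF receptor, stood at 9.24, 8.31 and 14.5 CPM and was called higher at 2 days (0.64). The chemokine receptor Cxcr2 stood at 3.50, 3.74 and 5.35 CPM and was not called. Ly6g, the antigen of the Gr-1 antibodies, stood at 1.96, 1.32 and 1.12 CPM and was the 1 gene of the list called lower at 2 days (−0.76). The Ly6g call rests on 126 reads in control and 61 at 2 days. Its run 2 fold of −0.60 and that of Csf3r, 0.59, lay near the 1.5-fold line. At 2 days, then, Ly6g was called lower while Chi3l3, Retnlg, Mmp8 and Csf3r were called higher.

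Of 6 further primary granule genes, 1 was called higher at 1 day, and 1 was called lower at 2 days against control and between the fasts. That 1 gene was Prss57, a serine protease, at 4.09, 8.37 and 1.17 CPM. Proteinase 3 (Prtn3), whose gene lies next to Elane, stood at 5.11, 4.28 and 5.60 CPM, and cathepsin G (Ctsg) at 1.81, 2.98 and 2.88 CPM. Neither was called, nor were Ms4a3 (1.43, 1.36 and 1.43 CPM), Nkg7 (0.890, 1.16 and 0.652 CPM) or the cystatin Cst7 (0.797, 0.703 and 0.478 CPM).

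Among 6 transcription factors of granulocytes, Cebpe, which drives secondary granule genes, was called lower at 1 day. It stood at 3.86, 2.31 and 3.06 CPM (log2 folds −0.72 at 1 day and −0.32 at 2 days). Cebpb, which acts in granulocytes made on demand and in monocytes, stood at 6.10, 9.24 and 16.9 CPM and was called higher at 2 days (1.45). PU.1 (Spi1, at 56.1, 64.5 and 72.1 CPM) and Gfi1 (62.8, 57.5 and 50.6 CPM) are expressed in B-lineage cells too, and neither was called. Cebpd (1.17, 1.05 and 1.35 CPM) and Cebpa (0.721, 1.08 and 0.947 CPM) were near the lower end of what was measured and were not called.

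Markers of other blood cells were counted in the same libraries. Over all genes compared, 4.29% were called higher and 2.79% lower at 1 day, and 9.52% and 10.1% at 2 days. Of 17 measured genes of monocytes, macrophages and dendritic cells, 2 were called higher at 1 day, and 9 higher and 1 lower at 2 days, and their summed level was 129 to 136 CPM in control, 178 to 181 CPM at 1 day and 249 to 259 CPM at 2 days. Among them Lgals3 stood at 8.12, 13.7 and 26.1 CPM, Cx3cr1 at 20.2, 25.7 and 33.4 CPM, and Ctss, which B cells also express, at 65.3, 95.3 and 126 CPM. Without Ctss, a gene left out after its values were seen, the sum was 63.5 to 71.2 CPM in control, 81.8 to 86.6 CPM at 1 day and 126 to 130 CPM at 2 days. The median log2 fold of the 17 genes was 0.26 at 1 day and 0.78 at 2 days, and single genes ranged at 1 day from Itgax at −0.39 to Ccr2 at 0.84. The part of monocyte or macrophage RNA in the levels of Chi3l3 and Lyz2 was not tested.

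The 13 measured genes of eosinophils, basophils and mast cells summed to 45.2 to 45.3 CPM in control, 62.3 to 62.5 CPM at 1 day and 31.6 to 32.2 CPM at 2 days, with 4 called higher at 1 day and 3 lower and 1 higher at 2 days. The granule protein gene Prg2 stood at 19.5, 26.1 and 14.2 CPM, Ear1 at 5.49, 8.19 and 3.84 CPM and Prss34 at 4.06, 7.52 and 2.89 CPM. These 3 were highest at 1 day, where the members were lowest. The 4 called higher at 1 day were Prss34, Cpa3, Fcer1a and Ms4a2. Not all genes of the list shared this, as Epx and Prg3 were near control at 1 day (log2 folds −0.05 and 0.06). Ccr3 was the 1 gene called higher at 2 days (0.96). The 12 measured T-cell and NK-cell genes summed to 22.0 to 23.6 CPM, 49.4 to 52.1 CPM and 30.6 to 33.1 CPM, also highest at 1 day, with 8 called higher and 1 lower at 1 day and 2 higher and 3 lower at 2 days. Of these Cd2 stood at 15.4, 35.9 and 26.1 CPM, Thy1 at 3.56, 7.50 and 2.29 CPM and Gzma at 0.830, 1.63 and 0.613 CPM. Cd2 alone thus made up most of this sum in every group, and the order of the sums is mainly that of Cd2. Thy1 and Gzma were below control at 2 days. Cd3e stood at only 0.386, 0.436 and 0.160 CPM, and Cd4 was the gene called lower at 1 day (log2 fold −1.31, from 32 reads in control and 10 at 1 day). The T-cell genes were not of one direction at 1 day. Cd3d was called higher (0.86), while Cd3e (0.14), Cd8a (0.16) and Cd3g (−0.50) were not called. The 19 erythroid genes summed to 1136 to 1144 CPM, 1246 to 1249 CPM and 1761 to 1774 CPM, with 0 called at 1 day and 5 higher at 2 days. Hbb-bs stood at 151, 200 and 402 CPM and Hba-a1 at 135, 168 and 266 CPM, reads that near-identical globin copies may share, and the transferrin receptor Tfrc, which dividing cells express, at 633, 621 and 708 CPM. Of the megakaryocyte genes only Itga2b (1.12, 1.64 and 0.989 CPM) and Gp1ba (0.374, 0.298 and 0.174 CPM) were measured. The part of these cells in the members' levels was not tested.

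**Figure D5:**
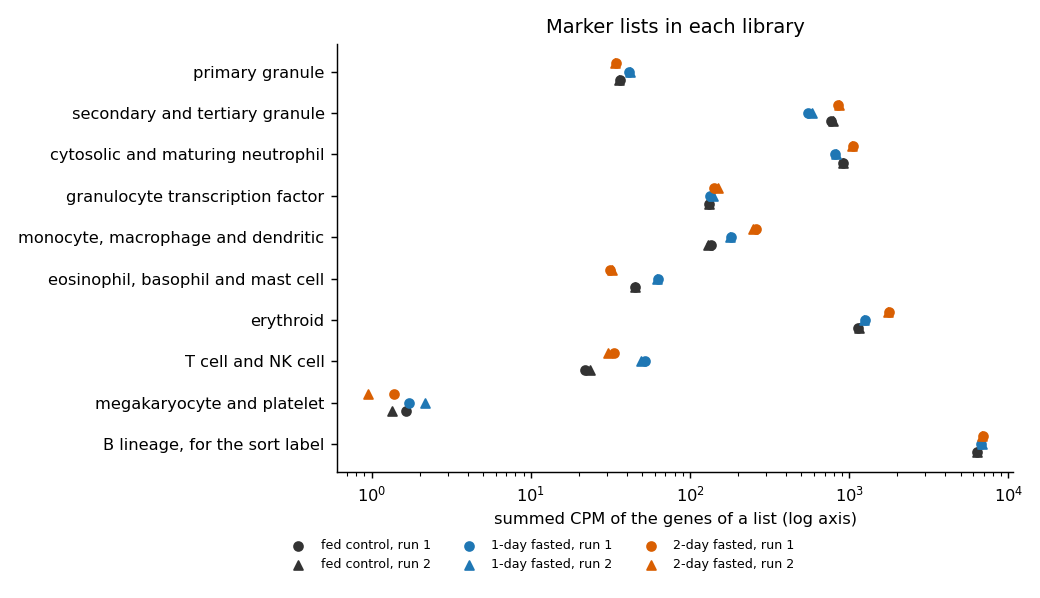
Summed CPM of the measured genes of each list in each library (log axis), members included in the granule and cytosolic lists and Mycn in the B-lineage list, with groups by colour, circles for run 1 and triangles for run 2. The secondary and tertiary granule list is lowest at 1 day, the lists of T and NK cells and of eosinophils, basophils and mast cells are highest at 1 day, and the monocyte and erythroid lists are highest at 2 days.

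Of 9627 other genes with a mean of at least 5 CPM, the 5 nearest to the members' median pattern were Cd177, Ncf1, Mdn1, Klf7 and Brwd1. Likeness was the distance between the 4 log2 folds against control (both fasts and both runs) of a gene and the members' medians, over 3 groups with 2 runs each. The distances were 0.10 for Cd177, 0.12 for Ncf1, 0.14 for Mdn1, 0.20 for Klf7 and 0.24 for Brwd1, beside a median of 0.41 among the members themselves. Within that median distance lay 59 genes. Ncf1, an oxidase subunit, stood at 11.7, 7.88 and 10.8 CPM, and Mdn1, a ribosome assembly factor expressed in dividing cells, at 384, 257 and 381 CPM. A dip at 1 day of the members' size was also present in Mdn1, which is not specific to neutrophils. The 5 genes were picked by this likeness, so that they share the dip follows from the selection.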

How the data were processed

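RNA-seq of sorted B-ALL cells was analysed in 6 libraries, 2 for each of 3 groups. The authors' deposited tables give read counts per gene (total or unique, over gene, exons, junctions and introns) and the authors' RPKM, which are total gene reads over exon length and library total. The submitters' processing notes name TopHat2 and mm10. Which program and annotation gave the counts is not given in the sources used here. The tables list 38355 (run 1) or 38924 genes (run 2), matched on position or otherwise on symbol and chromosome, without mitochondrially encoded genes.

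Squared differences between runs over their read-sampling variance had, on unique reads, a median ratio of 1.09 to 1.10 for runs of the same group and 5.89 to 19.2 for libraries of different groups (on total reads, 1.35 to 1.38 and 6.93 to 21.1), so each group was counted as 1 sample. For the members, the 95% interval of the ratio of run 2 to run 1 held 1 in 24 of 30 cases, and the ratios lay between 0.875 and 1.26. That is fewer than 95% of cases, so the members' runs differed somewhat beyond counting error. The intervals given for the members may thus be too narrow. Total gene reads were scaled to CPM with TMM factors (edgeR 4.0.16, R 4.3.3), and filterByExpr with a minimum count of 10 kept 14236 genes. Intervals are exact Poisson or binomial ones. Alternatives were DESeq2 1.42.0 size factors, library totals, unique or exon reads, RPKM, other pseudocounts, no filter, a 2-fold rule and leaving out each library.

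The members and lists were chosen with earlier results of these data known. All members are named; of other lists, up to 6 genes with the highest mean CPM (3 for lists of other cells). Some genes that this rule names are not reported here. Promoters and motif letters come from RefSeq, GRCm38.p6.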

Additional observations from a re-analysis of the deposited data

Results flagged for a closer look

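Lcn2, Chi3l3 and Lyz2 were lower than control in both runs at 1 day and higher than control in both runs at 2 days. The log2 fold of 2 days against 1 day was 0.58 for Lcn2, 1.19 for Chi3l3 and 0.81 for Lyz2. The difference between the fasts was not tested, since each group is 1 sample, and both comparisons share the same control libraries. Over all genes compared, 4.29% were called higher at 1 day, and 9.52% higher and 10.1% lower at 2 days. Of 17 markers of monocytes, macrophages and dendritic cells, 2 were called higher at 1 day, and 9 higher and 1 lower at 2 days. Their sum was 129 to 136 CPM in control, 178 to 181 CPM at 1 day and 249 to 259 CPM at 2 days, and without Ctss, which B cells also express, it was 63.5 to 71.2, 81.8 to 86.6 and 126 to 130 CPM. Their part in these levels was not tested.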

How the results depend on the processing

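No paired analysis was possible because each group was counted as 1 sample with 2 runs and no test was made. Over 14 alternatives the sign of each member's log2 fold was kept in 140 of 140 values at 1 day and in 140 of 140 between the fasts. At 2 days against control it was kept in 138 of 140 values rounded to 2 decimals, with Elane and Mpo each changing sign once. With library totals Mpo was at 0.00 and, before rounding, 5 members lay below 0 and 5 above, against 6 and 4 in the main setting.

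Against control at 2 days, the summed level (log2 fold −0.08) was −0.09 with DESeq2 factors, −0.04 with library totals, −0.10 on unique reads, −0.09 with no filter, −0.11 on RPKM, 0.00 without S100a8 and S100a9, −0.13 without Lyz2, and −0.09 to −0.07 when each library was left out in turn. At 1 day it was −0.56 without S100a8 and S100a9 and −0.63 to −0.56 when a library was left out. The members' median at 2 days was −0.01 with library totals, −0.03 on RPKM and −0.11 to −0.05 without a library. Between the fasts it was 0.42 with library totals, 0.37 with no filter, 0.40 on RPKM, 0.38 with 1 CPM added and 0.36 to 0.43 without a library, and at 1 day it was −0.65 to −0.51 without a library.

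The 1 member called higher at 2 days became 0 with DESeq2 factors, no filter, 1 CPM added or a 2-fold rule. The 3 members called higher between the fasts became 2 with no filter, where S100a8 lost its call, and 4 with library totals, where Lcn2 gained one. With a 2-fold rule the members called lower at 1 day became 0 and those higher between the fasts 1 (Chi3l3). With 1 CPM added, all genes called were 302 higher and 165 lower at 1 day, 899 higher at 2 days, and 445 higher and 754 lower between the fasts. With a 2-fold rule they were 213 and 111, 635 and 813, and 278 and 675. Leaving out each library in turn, those of the group not compared included, gave 617 to 1048 higher and 413 to 790 lower at 1 day and 837 to 1404 higher between the fasts. Where the library left out belonged to a compared group, the call asked only for the mean and the 1 remaining run. That rule is looser, so these counts are not like for like with the main ones. With 1 sample in a group, depth limits only counting error, which is widest for Elane, and says nothing of the spread between mice.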
